A study of Mus musculus with 24 samples.

Results

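The comparison described here asks whether the difference between APP/PS1 and control microglia was larger at 9 months of age than at 6 months. It is the log2 ratio of transgenic to control at 9 months minus the same ratio at 6 months, called the interaction below, and a positive value is a transgenic-to-control ratio that was higher at the later age. It uses 15 of the 24 libraries of the series: 4 of wt and 4 of tg at 6 months, 4 of wt and 3 of tg at 9 months. All were bulk RNA libraries of microglia from the hippocampus of male mice, sorted as living cells high in CD11b and intermediate in CD45 that lacked CD49d. The tg mice carried APPswe/PSEN1dE9, a pair of transgenes for mutant human amyloid precursor protein and presenilin that is known to be driven by the mouse prion protein promoter, and the wt mice were the controls. No treatment is given for any group. Of 36982 gene symbols in the deposited table, 15236 reached 1 CPM (a count scaled to its library total) in at least 3 of the 15 libraries and were tested.

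As background, microglia near amyloid plaques are known to take on a state called disease-associated microglia (DAM). In it, receptors that sense lipids and dying cells (Trem2, Axl, Clec7a), secreted factors (Spp1, Igf1) and genes of lipid and lysosomal metabolism (Apoe, Lpl, Cst7) are transcribed more, while genes of resting, or homeostatic, microglia such as P2ry12, Tmem119 and Cx3cr1 are transcribed less. The APP/PS1 line is known to gain plaques with age over the months compared here.

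The libraries used held 8147240 to 14198506 counts and 14129 to 17912 detected genes. The fourth tg library of 9 months held 6325 counts and was left out by the rule, which leaves out libraries of so low a total. The homeostatic marker P2ry12 lay between 10152 and 21862 CPM in all 15, so the sorted cells carried the labelled cell type's defining transcript throughout. Some libraries stood apart. The control wt 9 months replicate 1 had the highest value of the 4 wt libraries of its age for 42 of 58 tested DAM genes, 72.4%, against 25% of all tested genes, and interaction values below are given with all 15 libraries first and without it second; where a gene has a pair of values, they are these. The library wt 6 months replicate 3 lay at 147 on the first principal component, where the other 14 lay between −30.2 and 29.2. On the second component tg 6 months replicate 3 lay at 111, where the other 14 lay between −37.4 and 31.6. The control wt 9 months replicate 1 lay within the range of the others on both components, at −20.3 and −33.7. The labels do not say whether replicates are separate animals, so the spread behind each p-value may be technical. In bulk RNA, fewer cells of a type and less RNA per cell cannot be told apart.

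No gene passed the test of the interaction. The edgeR quasi-likelihood test called 0 of 15236 genes (0% called) at an adjusted p under 0.05, with 563 (3.7%) at an unadjusted p under 0.05, of which 299 were positive and 264 negative. Without wt 9 months replicate 1 it called 0 of 15098, with 607 (4.02%) at an unadjusted p under 0.05. DESeq2 called 19 genes (0.126%), with 664 at an unadjusted p under 0.05, and limma-voom called 0, with 855. Of the 19, 14 had a group with 0 counts in every library, and the other 5 were Mcm6, Zfp141, Cd300a, Jag2 and Hbb-bs. The biological coefficient of variation was 70.4% over the 15 libraries and 69.3% without that control, so the values below carry wide intervals. Each log2 value below comes from the edgeR fit. Its standard error (SE) was derived from the log2 value and the F statistic of the test, and is approximate. Every adjusted p of the interaction from that fit was 0.89 or higher with all 15 libraries.

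The lysosomal gene Cst7 (ENSMUSG00000068129), which encodes the protease inhibitor cystatin F, shows how much 1 control decided. In the wt libraries of 6 months it was at 14.3, 12.6, 13.9 and 12.5 CPM, and in the tg libraries at 203, 133, 179 and 179 CPM. At 9 months the wt libraries had 295, 16.1, 30.3 and 11.7 CPM, the first being replicate 1, and the tg libraries 413, 399 and 516 CPM. Within each age all tg libraries exceeded all wt libraries, and all tg libraries of 9 months exceeded those of 6 months, while wt replicate 1 of 9 months lay above all tg libraries of 6 months. The interaction was −1.37 (SE 1.07, 95% interval −3.65 to 0.91) with that control and 0.81 (SE 0.36, 0.04 to 1.58, unadjusted p = 0.041 in edgeR) without it. The scale mattered as well: the mean tg minus wt difference went from 160.0 CPM at 6 months to 355 CPM at 9 months with all libraries, and to 424 CPM without that control.

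Tested on its own, each genotype difference called few genes, Cst7 among them. With 15 libraries edgeR called 0 genes at 6 months (726 or 4.77% at an unadjusted p under 0.05) and 0 at 9 months (594 or 3.9%). DESeq2 called 24 (0.159%, with 825 at an unadjusted p under 0.05) and 18 (0.119%, with 689) there. limma-voom called 0 (650) and 2 (0.0131%, with 1029). Without wt 9 months replicate 1, edgeR called Cst7 at 6 months (log2 fold change 3.70, adjusted p = 1.5e-05) and Cst7 (4.51, adjusted p = 1e-05) and Clec7a (2.60, adjusted p = 0.005) at 9 months, which is 0.00662% and 0.0132% of the genes.

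The promoter of Cst7 is shown because this gene had the largest called genotype difference at both ages without that control. The window runs from 250 bases before to 50 after the start in RefSeq's GRCm38.p6 (the count files use GRCm39), chromosome 2, 150570165 to 150570464, plus strand. The capitals mark AGGAAGT, a core bound by ETS factors, the family of the myeloid regulator PU.1. It begins 63 bases before the start site, and 9.35% of all 32851 promoter windows of this length hold it on either strand.
Cst7: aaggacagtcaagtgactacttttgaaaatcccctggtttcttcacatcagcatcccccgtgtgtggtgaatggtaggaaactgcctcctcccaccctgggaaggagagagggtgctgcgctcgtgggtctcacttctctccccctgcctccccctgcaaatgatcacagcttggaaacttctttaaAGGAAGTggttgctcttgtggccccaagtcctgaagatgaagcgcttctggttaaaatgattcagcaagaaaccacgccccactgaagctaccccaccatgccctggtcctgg

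The DAM genes, in 4 lists of 59 genes by role, of which 58 were tested and Mamdc2 was not, leaned to a larger genotype difference at 9 months, by an amount that depended on the same control. With 15 libraries the interaction was positive in 41 of 58 (70.7%, against 48.9% of all tested genes), with a median of 0.21 against −0.02 for all genes. At an unadjusted p under 0.05 there were 2 of 58 (3.45%), close to the 3.7% of all genes. Without wt 9 months replicate 1, 51 of 58 were positive (87.9%, against 49.8%), the median was 0.42 against −0.00, and 14 of 58 (24.1%, against 4.02%) had an unadjusted p under 0.05, all positive. Leaving out any other single library gave medians of 0.14 (without tg 9 months replicate 1) to 0.27 (without tg 9 months replicate 3). Since that control stands out in these same genes, the values without it are not independent of the list. The median genotype difference itself was 0.19 at 6 months and 0.60 at 9 months, or 0.81 without that control. As plain CPM differences, tg minus wt was larger at 9 than at 6 months in 52 of 58 with all libraries (49.8% of all genes) and in 53 of 58 without that control (50.1%).

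**Figure D1:**
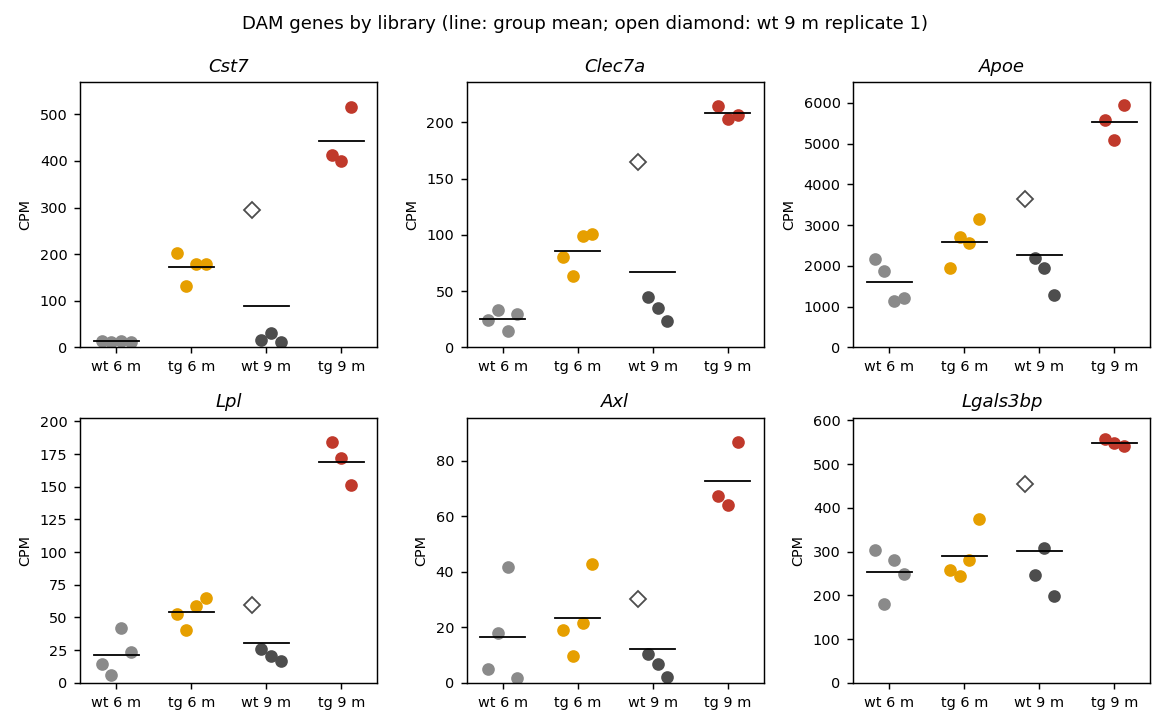
CPM (vertical axis, linear from 0) of 6 DAM genes in each library of wt and tg at 6 and 9 months (m); points are libraries, lines group means, and the open diamond is wt 9 months replicate 1. The 3 tg libraries of 9 months lie above the 4 of 6 months in all 6 panels, and the diamond lies above the other wt libraries of its age.

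The separation by age was in the tg libraries. Every tg library of 9 months lay above every tg library of 6 months for 24 of 58 DAM genes (41.4%, against 3.98% of all tested genes), and for 0 the order was the reverse (3.92% of all genes). In wt, 0 of 58 had all 9-month libraries above all 6-month libraries (1.29% of all genes) and 0 had them all below (1.21%). Between genotypes, the lowest tg library exceeded the highest wt library for 7 of 58 (12.1%, against 1.57%) at 6 months, with 0 in reverse (0.991% of all genes), and for 23 of 58 (39.7%, against 3.18%) at 9 months. At 9 months 1 of 58 had every tg library below every wt library (2.77% of all genes).

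Among the surface receptors of the DAM state, 14 of 18 had a positive interaction (median 0.28) and 16 of 18 without that control (median 0.64). Clec7a (ENSMUSG00000079293), the beta-glucan receptor Dectin-1, was at 24.4, 33.2, 14.9 and 29.6 CPM in wt and 79.9, 63.2, 99.2 and 101 CPM in tg at 6 months. The 9-month libraries had 165, 44.6, 34.7 and 23.4 CPM in wt and 214, 203 and 206 CPM in tg. The tg libraries lay above the wt libraries at both ages, and wt 9 months replicate 1 again lay above all tg libraries of 6 months. Its interaction was −0.11 (SE 0.68) with that control and 0.85 (SE 0.38) without it.

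Axl, a receptor tyrosine kinase that binds phosphatidylserine through a bridging protein, was near the controls at 6 months and apart from them at 9 months. It was at 5.16, 18.0, 41.8 and 1.71 CPM in wt and 19.1, 9.56, 21.6 and 42.9 CPM in tg at 6 months, where the groups overlapped. By 9 months the values were 30.2, 10.2, 6.65 and 2.24 CPM in wt and 67.2, 64.1 and 86.7 CPM in tg, with no overlap. The interaction was 2.08 (SE 1.18), 3.02 (SE 1.14) without wt 9 months replicate 1 and 1.07 without wt 6 months replicate 3, its highest 6-month control. Itgax, the integrin CD11c, had 0.52 (SE 1.46), 1.72 (SE 1.42) without wt 9 months replicate 1, and −0.29 without wt 6 months replicate 1. Cd52, a small GPI-anchored glycoprotein of leukocytes, had 0.57 (SE 0.31) and 0.76 (SE 0.29). The lipid-sensing receptor Trem2, on which the full DAM state is known to depend, had a value near 0: it lay between 1876 and 2883 CPM over all 15 libraries with overlap of all groups, and its interaction was −0.02 (SE 0.17, 95% interval −0.39 to 0.36), or 0.0079 without that control.

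Of the secreted factors, 8 of 13 were positive (median 0.12), and 12 of 13 without that control (median 0.53); the median was −0.14 without wt 6 months replicate 1, −0.078 without wt 9 months replicate 2_4 and −0.051 without tg 6 months replicate 2. Lgals3bp, a secreted glycoprotein that binds galectins, was at 303, 181, 280.1 and 249.9 CPM in wt and 258, 244, 281 and 374 CPM in tg at 6 months. At 9 months it was at 454, 246, 308 and 199 CPM in wt and 558, 549 and 541 CPM in tg. The genotypes overlapped at 6 months and not at 9 months, where the tg libraries lay within a narrow band. Its interaction was 0.67 (SE 0.33), and 0.94 (SE 0.28, unadjusted p = 0.0045 in edgeR) without that control. The chemokine gene Ccl4 had 0.27 (SE 0.27) and 0.47 (SE 0.24).

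Igf1, insulin-like growth factor 1, was at 1.24, 3.49, 0 and 0 CPM in wt and 17.9, 9.11, 23.1 and 23.7 CPM in tg at 6 months. Its 9-month values were 21.1, 1.14, 0 and 0 CPM in wt and 84.5, 73.2 and 45.6 CPM in tg. The tg libraries of 9 months lay above those of 6 months, and 1 control of 9 months was at the tg level of 6 months. With some wt libraries at 0 at each age, its fitted interaction depends on the prior count and is not given. The matrix protein gene Spp1, osteopontin, had an interaction of 0.28 (SE 1.03) and 0.55 (SE 1.08) without that control, with the tg libraries of 9 months, at 89.4, 68.1 and 58.5 CPM, above all others.

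The lipid, protease and intracellular genes held the DAM members of smallest p. Of 18, 12 were positive (median 0.22), 16 without that control (median 0.51), and 12 without tg 9 months replicate 3 (median 0.34). The lowest median with 1 library left out was 0.15, without tg 9 months replicate 1. Lpl, lipoprotein lipase, was at 14.6, 6.18, 41.6 and 23.2 CPM in wt and 52.5, 40.1, 58.4 and 64.6 CPM in tg at 6 months. The 9-month libraries had 59.4, 25.5, 20.9 and 16.4 CPM in wt and 184, 172 and 151 CPM in tg. The tg libraries of 9 months lay above all others. Its interaction was 1.14 (SE 0.67), 1.68 (SE 0.61) without wt 9 months replicate 1 and 0.59 without wt 6 months replicate 3.

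Capg, an actin-capping protein, depended little on the choice of library. It was at 69.6, 74.0, 63.0 and 48.0 CPM in wt and 75.0, 68.2, 57.5 and 67.6 CPM in tg at 6 months, and at 68.9, 55.3, 68.8 and 68.4 CPM in wt and 137, 106 and 108 CPM in tg at 9 months. The 3 tg libraries of 9 months lay above all 12 others, which overlapped. Its interaction was 0.77 (SE 0.24, unadjusted p = 0.0066, adjusted p = 1 in edgeR) and 0.79 (SE 0.26) without wt 9 months replicate 1, with a range of 0.64 to 0.88 over the alternatives run.

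Gusb, the lysosomal enzyme beta-glucuronidase, was at 396, 464, 564 and 611 CPM in wt and 536, 448, 343 and 525 CPM in tg at 6 months. At 9 months it was at 587, 464, 309 and 435 CPM in wt and 807, 743 and 653 CPM in tg, above all other libraries. Its interaction was 0.85 (SE 0.28, unadjusted p = 0.0093, adjusted p = 1 in edgeR) and 1.00 (SE 0.27) without that control. Hif1a, the transcription factor of the hypoxia response, had 0.70 (SE 0.35) and 0.94 (SE 0.32). Baiap2l2, which encodes a protein that bends membranes, was at 0 in the 4 wt libraries of 6 months and at 3.35, 4.24, 3.45 and 2.68 CPM in tg. In the older mice it was at 7.62, 0, 0.0693 and 0 CPM in wt and 13.2, 11.4 and 7.94 CPM in tg, so that replicate 1 of wt again lay at the level of tg.

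Among the 9 DAM genes that the first, Trem2-independent stage is known to share, 7 were positive with and without that control (medians 0.080 and 0.13). The count was 5 of 9 without any 1 of 4 other libraries, with a median of 0.0049 without wt 6 months replicate 3 and 0.039 without tg 6 months replicate 1. Apoe (ENSMUSG00000002985), the lipid carrier apolipoprotein E, was at 2173, 1869, 1132 and 1209.6 CPM in wt and 1937, 2704, 2562 and 3146 CPM in tg at 6 months. Its 9-month values were 3649, 2197, 1948 and 1298 CPM in wt and 5581, 5087 and 5951 CPM in tg. The genotypes overlapped at 6 months and not at 9 months. Its interaction was 0.59 (SE 0.40) and 0.91 (SE 0.33, unadjusted p = 0.016 in edgeR) without that control. Lyz2, lysozyme, had 0.48 (SE 0.31) and 0.53, and the protease gene Ctsb, cathepsin B, 0.27 (SE 0.20) and 0.37. The signalling adaptor Tyrobp, partner of Trem2, had 0.03 (SE 0.21) and 0.090, with genotype differences of 0.34 at 6 months and 0.37 at 9 months in 15 libraries. Cstb, the protease inhibitor cystatin B, went the other way, with tg above wt in every library at 6 months and overlap at 9 months (interaction −0.37, SE 0.22, and −0.36 without that control).

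**Figure D2:**
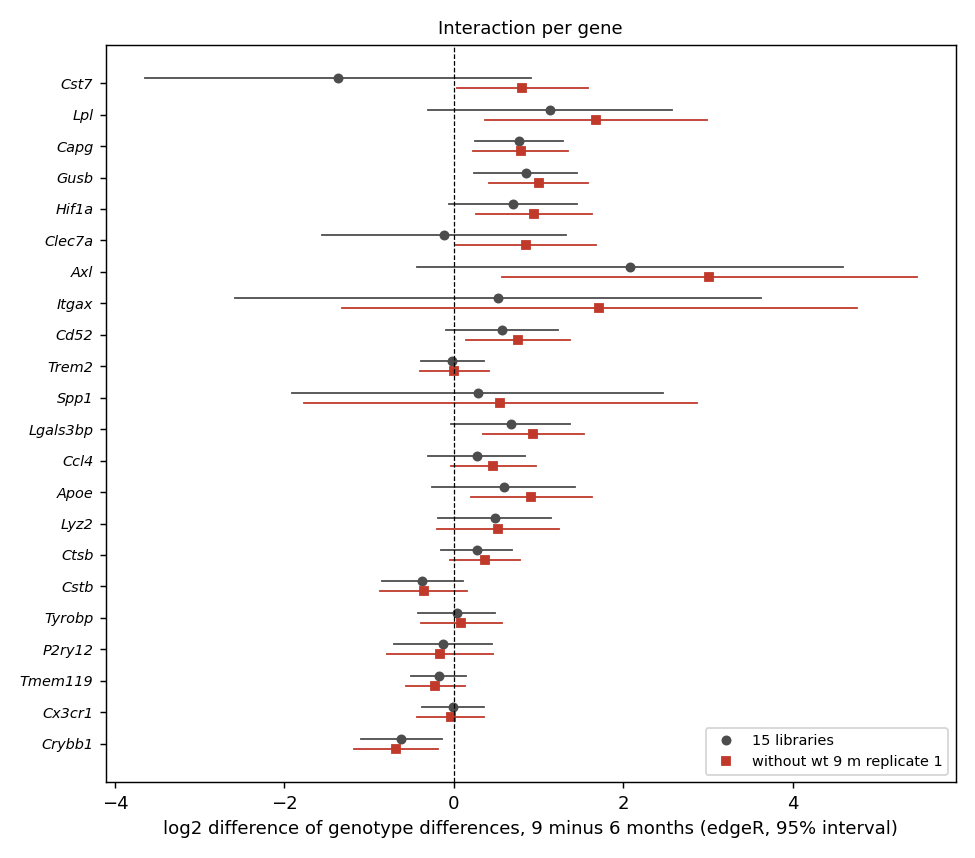
Interaction (log2, horizontal axis) of 22 DAM and homeostatic genes from edgeR with its 95% interval, with all 15 libraries (grey circles) and without wt 9 months replicate 1 (red squares). Cst7 and Clec7a move across 0 between the fits, while Capg, Gusb and Crybb1 keep their side.

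**Figure D3:**
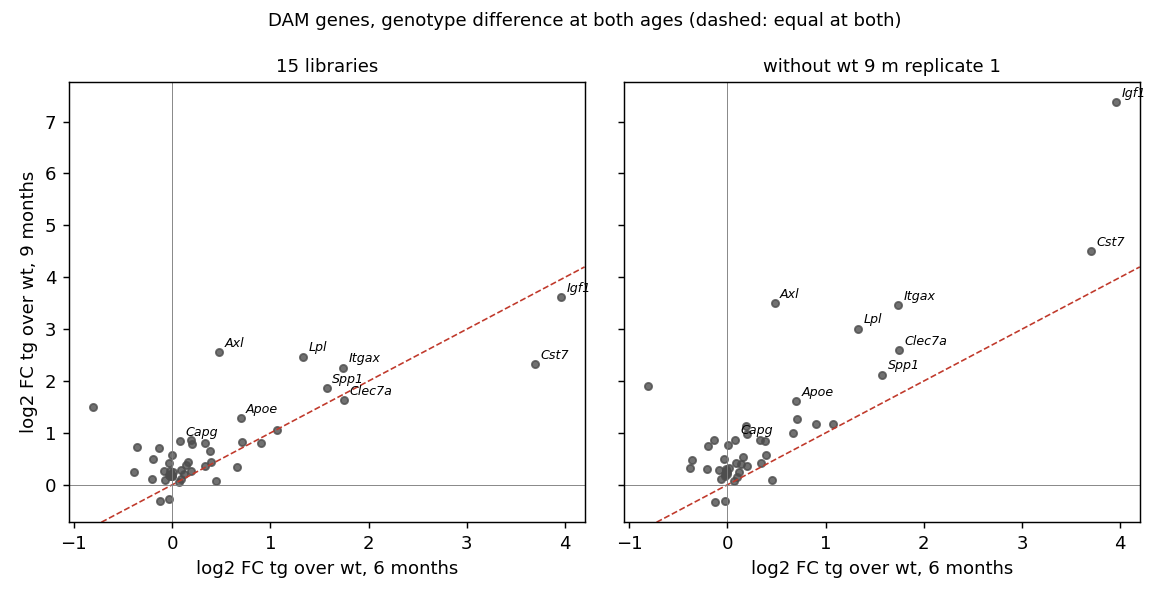
Log2 fold change of tg over wt at 6 months (horizontal) and 9 months (vertical) for the 46 DAM genes with a mean of at least 10 CPM, with 15 libraries (left) and without wt 9 months replicate 1 (right); each point is a gene and the dashed line marks equal values. Above the line lie 36 genes on the left and 43 on the right. The value of Igf1, with some controls at 0, depends on the prior count.

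The homeostatic genes were more often negative than positive, by small amounts that depended on single libraries. Of 30 tested, 7 had a positive interaction (23.3%, against 48.9% of all tested genes) and 23 a negative one (median −0.09). The counts were the same without that control (median −0.12). Without tg 6 months replicate 1 the split was 14 to 16 (median −0.024), and without tg 9 months replicate 3 it was also 14 to 16 (median −0.034). With all libraries 1 of 30 (3.33%, close to the 3.7% of all genes) had an unadjusted p under 0.05. That gene was Crybb1, a crystallin found in microglia, at 274, 327, 440 and 320 CPM in wt and 313, 369, 386 and 386 CPM in tg at 6 months. At 9 months it was at 277, 301, 384 and 321 CPM in wt and 192, 238 and 239 CPM in tg, below all other libraries. Its interaction was −0.62 (SE 0.22, unadjusted p = 0.014 in edgeR) and −0.68 (SE 0.23) without that control. Rhob, a small GTPase, had −0.79 (SE 0.41) and −0.78, and the engulfment receptor Mertk −0.47 (SE 0.25) and −0.53. The defining receptors overlapped between all groups: P2ry12, which senses ADP, had −0.13 (SE 0.27) and −0.16, the fractalkine receptor Cx3cr1 −0.01 (SE 0.17) and −0.039, and Tmem119 −0.18 (SE 0.15) and −0.22.

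Outside the DAM lists, the gene of smallest p was Mcm6 (ENSMUSG00000026355), a subunit of the helicase that opens DNA for replication. It was at 34.2, 36.9, 40.3 and 38.2 CPM in wt and 17.3, 20.2, 13.7 and 11.7 CPM in tg at 6 months. By 9 months the values were 26.8, 35.7, 34.8 and 30.9 CPM in wt and 57.7, 47.3 and 35.1 CPM in tg. Every tg library lay below every wt library at 6 months, and at 9 months the lowest tg library lay within the wt range. The interaction was 1.79 (SE 0.33, unadjusted p = 5.8e-05, adjusted p = 0.89 in edgeR), 1.71 (SE 0.34) without that control, and 1.80 with an adjusted p of 0.00013 in DESeq2.

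The Mcm6 promoter is shown because MCM genes are known targets of E2F factors, which switch on genes of DNA replication. It lies on chromosome 1, 128359656 to 128359955, minus strand, in the same RefSeq build, and is written 5′ to 3′ along the gene. The capitals mark TTTGGCGC, an E2F core, which begins 110 and 47 bases before the start site. Of the 32851 windows, 169 (0.514%) hold it on either strand.
Mcm6: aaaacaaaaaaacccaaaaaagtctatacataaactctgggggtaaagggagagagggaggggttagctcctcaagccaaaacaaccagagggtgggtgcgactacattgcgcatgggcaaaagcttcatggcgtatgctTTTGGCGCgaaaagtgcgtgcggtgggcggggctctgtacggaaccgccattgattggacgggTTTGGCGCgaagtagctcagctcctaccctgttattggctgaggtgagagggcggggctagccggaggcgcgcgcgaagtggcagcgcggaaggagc

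The list of replication and division genes, which includes Mcm6 in its counts, was mixed. Of 29 tested proliferation genes, 19 were positive and 10 negative (median 0.39), and 4 (13.8%, against 3.7% of all genes) had an unadjusted p under 0.05, 3 of them positive. Without wt 9 months replicate 1, 21 were positive (median 0.50) and 3 (10.3%, against 4.02%) had such a p. The median was 0.17 without tg 9 months replicate 1, 0.20 without tg 6 months replicate 2 or wt 6 months replicate 3, and 0.65 without wt 6 months replicate 1. Mcm2, another subunit of the helicase, was at 12.8, 9.22, 31.2 and 8.78 CPM in wt and 2.23, 5.59, 0 and 8.83 CPM in tg at 6 months, and at 13.7, 6.66, 6.09 and 3.24 CPM in wt and 14.9, 14.9 and 12.8 CPM in tg at 9 months. Its tg libraries of 9 months lay above those of 6 months (interaction 2.82, SE 1.23, and 3.30 without that control). The spindle factor gene Tpx2 was at 0, 5.29, 7.39 and 3.86 CPM in wt and 1.79, 0.541, 8.46 and 0 CPM in tg at 6 months, and at 0 in the 4 wt libraries and 2.81, 5.19 and 8.93 CPM in tg at 9 months. Its tg libraries overlapped between the ages, and the groups stood apart at 9 months, where wt was at 0. The mitotic kinase gene Aurkb was at 0 to 0.112 CPM in wt and 2.68 to 10.2 CPM in tg at 6 months. At 9 months it was at 5.18 CPM in wt replicate 1, at 0 in the other 3 wt libraries and at 0 to 2.16 CPM in tg, so its order at that age depended on that control.

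Zfp141, a zinc finger gene of a large family whose reads may be shared between members, had the second smallest p among positive values. It was at 23.5, 27.4, 18.9 and 29.2 CPM in wt and 11.6, 2.53, 5.01 and 5.37 CPM in tg at 6 months. In the older mice it was at 21.2, 11.8, 13.8 and 13.4 CPM in wt and 20, 35.1 and 33.0 CPM in tg. Tg was below wt in every library at 6 months and overlapped with it at 9 months. The interaction was 2.98 (SE 0.58, adjusted p = 0.89 in edgeR), 3.19 without that control, and 3.00 with an adjusted p of 0.00066 in DESeq2.

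Other positive values of small p came from genes with a negative fitted genotype difference at 6 months and a positive one at 9 months. Pfkfb3, an activator of glycolysis, had an interaction of 1.18 (SE 0.30) and 1.12 without that control, with genotype differences of −0.56 and 0.62 in 15 libraries. Sec16a, which organises exit sites of the endoplasmic reticulum, had 1.63 (SE 0.43) and 1.66. Mon2, a regulator of Golgi traffic, had 1.32 (SE 0.35) and 1.26. For both, every wt library of 9 months lay below every wt library of 6 months (1.21% of all genes). Their tg libraries overlapped between the ages. Sesn2, a stress-induced sestrin, had 3.62 (SE 0.96) and 3.58. Gvin-ps7, a pseudogene of interferon-induced large GTPases whose reads may belong to near-identical copies, had 1.16 (SE 0.30) and 1.14. The natriuretic peptide receptor gene Npr1 was at 3.46, 0.577 and 7.04 CPM in the tg libraries of 9 months and 0 in wt of that age, with 5.47, 0, 0 and 1.71 CPM in wt at 6 months.

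Among negative values of small p was Cd300a, an inhibitory receptor for phosphatidylserine and phosphatidylethanolamine. It was at 191, 239, 206 and 196 CPM in wt and 275, 291, 245 and 239 CPM in tg at 6 months. At 9 months it was at 219.8, 198, 263 and 246 CPM in wt and 172, 192 and 158 CPM in tg. Tg lay above wt in every library at 6 months and below it in every library at 9 months. The interaction was −0.75 (SE 0.18, unadjusted p = 0.00096, adjusted p = 1 in edgeR), −0.78 (SE 0.20) without that control, and −0.75 with an adjusted p of 0.04 in DESeq2.

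Pgls, an enzyme of the pentose phosphate pathway, was at 29.5, 29.5, 23.9 and 18.4 CPM in wt and 37.5, 45.7, 54.4 and 45.7 CPM in tg at 6 months, and at 48.9, 30.2, 35.0 and 35.7 CPM in wt and 28.6, 32.9 and 28.4 CPM in tg at 9 months. Tg lay above wt at 6 months only, and the interaction was −1.18 (SE 0.32) and −1.02 without that control. BC002059, a zinc finger gene, had −1.65 (SE 0.45) and −1.76, with tg at 13.5, 13.5 and 5.26 CPM at 9 months, below all other libraries. Jag2, a Notch ligand, was at 6.14, 2.62, 9.79 and 20 CPM in tg at 6 months and at 1.40, 0.577 and 1.89 CPM in tg at 9 months, and its wt libraries went from 0 to 2.37 CPM at 6 months to 0.914 to 14 CPM at 9 months. Frrs1l, an assembly factor of AMPA receptors, was at 0 in all wt libraries of 6 months and all tg libraries of 9 months, and at 1.34 to 4.67 CPM in tg at 6 months. The unnamed genes Gm10640, Gm38020 and Gm31410 were likewise at 0 in all tg libraries of 9 months, and none of these 3 passed 4.23 CPM in any library.

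**Figure D4:**
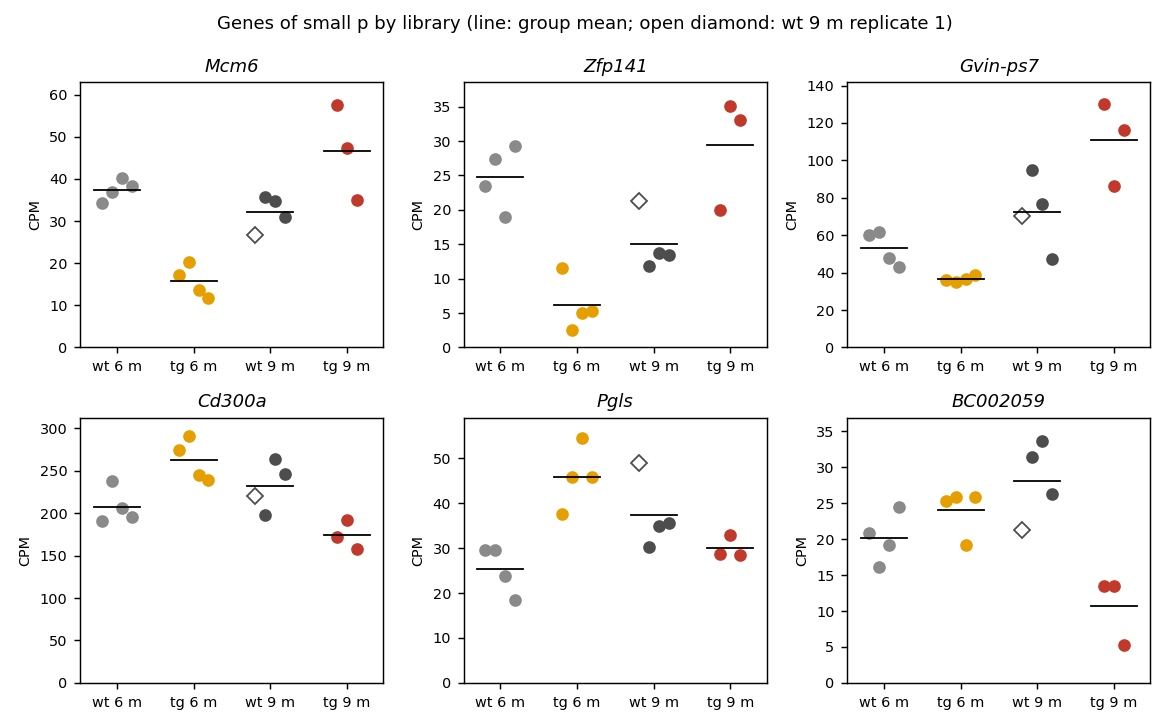
CPM (vertical axis, linear from 0) by library of 3 genes with positive and 3 with negative interaction values of small p; points are libraries, lines group means and the open diamond is wt 9 months replicate 1. Mcm6, Zfp141 and Gvin-ps7 are lower in tg than in wt at 6 months, and Cd300a is higher in tg at 6 months and lower at 9 months.

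The interferon genes, which respond to type I interferon, rested on a single tg library. Of 28 tested, 25 had a positive interaction (89.3%, median 0.52), and 26 without wt 9 months replicate 1 (median 0.77). Without tg 9 months replicate 3 the count was 13 of 28 and the median −0.02. The summed level of the list was 1712 CPM in that library, against 814 and 806 CPM in the other tg libraries of 9 months and 538 to 1004 CPM in wt. Ifitm3, a membrane protein that blocks virus entry, was at 22.1, 29.4 and 105 CPM in tg at 9 months, and its interaction of 1.06 (SE 0.65), 1.18 without wt 9 months replicate 1, became 0.04 without that tg library. Slfn2, a schlafen of immune cells, had 1.04 (SE 0.55), 1.20 without the control and 0.60 without the tg library. Irf9, a subunit of the interferon-activated transcription factor, had 0.49 (SE 0.22), 0.53 without the control, and was at 122, 118 and 115 CPM in tg at 9 months, with no such spread.

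The lysosomal genes, a list that shares members such as Gusb, Hexa, Ctsb and Ctsd with the DAM lists, gave small values. Of 32 tested, 22 were positive (68.8%, median 0.10). An unadjusted p under 0.05 was reached by 2 (6.25%, against 3.7% of all genes), the DAM gene Gusb and Man2b1. Without wt 9 months replicate 1, 23 were positive (median 0.10). Such a p was then reached by 4 (12.5%, against 4.02%), the DAM genes Gusb and Hexa among them. The median was 0.061 without wt 6 months replicate 3 and 0.22 without tg 6 months replicate 1. Man2b1, lysosomal alpha-mannosidase, was at 727, 1001, 857 and 770.2 CPM in wt and 648, 706, 658 and 688 CPM in tg at 6 months, and at 949.8, 785, 745 and 827 CPM in wt and 880.4, 1042 and 823 CPM in tg at 9 months. Tg lay below wt in every library at 6 months and overlapped with it at 9 months, and the interaction was 0.46 (SE 0.17, unadjusted p = 0.017 in edgeR), or 0.53 (SE 0.17) without that control. Glb1, beta-galactosidase, had 0.52 (SE 0.27) and 0.73, and Mitf, a transcription factor of lysosomal genes, 0.99 (SE 0.56) and 1.14.

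Cholesterol synthesis had 12 of 22 positive (median 0.40), and 15 of 21 without wt 9 months replicate 1 (median 0.62). The median ranged from 0.12 without tg 9 months replicate 1 to 0.64 without wt 6 months replicate 3. Hmgcs1, an early enzyme of the pathway, had 1.08 (SE 0.54), 1.14 without that control, and was at 58.5, 44.1 and 68.3 CPM in tg at 9 months, above wt of that age. The later enzyme gene Nsdhl had 0.83 (SE 0.50) and 1.13. Antigen presentation was mixed, with 6 of 16 positive (median −0.05) and 5 without that control (median −0.073). The class I gene H2-D1 had 0.37 (SE 0.19) and 0.49, with tg above wt in every library at 9 months, and Tap1, the peptide transporter, −0.97 (SE 0.38) and −0.95. Of the orthologues of Alzheimer risk genes, 16 of 31 were positive (median 0.00), and 17 without that control (median 0.017). Ptk2b, a kinase, had 1.09 (SE 0.54) and 0.98, and the sialic acid receptor Cd33 0.37 (SE 0.19) and 0.33. Nuclear genes of oxidative phosphorylation were positive in 8 of 30 (median −0.18) and in 9 without that control (median −0.15), with 0 at an unadjusted p under 0.05 in edgeR in either fit. Their count was 4 of 30 without wt 6 months replicate 3 and the median −0.098 without wt 6 months replicate 2. The transgenes' mouse counterparts gave no check of the labels: App had an interaction of 0.14 (SE 0.46), 0.047 without wt 9 months replicate 1 and −0.43 without wt 6 months replicate 3, and Prnp 0.61 (SE 1.22) and 0.54.

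**Figure D5:**
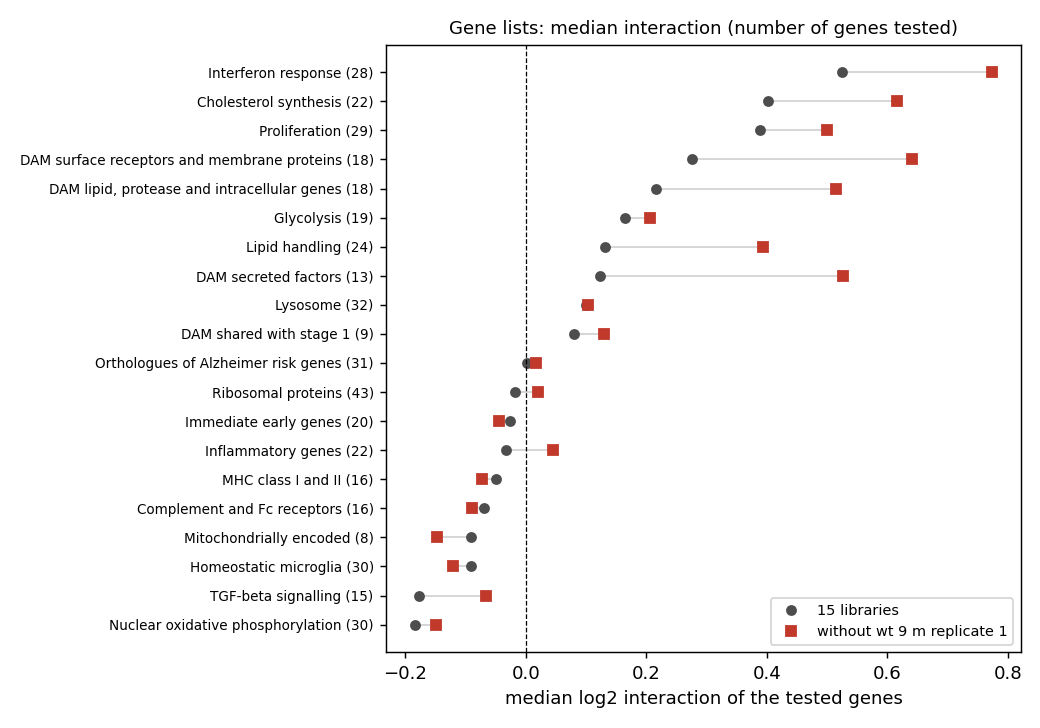
Median interaction (log2, horizontal axis) of the tested genes of each state or pathway list, with the number of genes in brackets, for 15 libraries (grey circles) and without wt 9 months replicate 1 (red squares). Most lists move to higher medians without that control, the 4 DAM lists among them. The homeostatic, MHC, complement, mitochondrially encoded and immediate early lists move to lower medians.

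Markers of other cell types differed between libraries. Globin transcripts were the clearest: Hbb-bs was at 0, 11.8, 24.7 and 10.9 CPM in wt at 9 months, the 0 being replicate 1, and at 0.216, 0.0961 and 0 CPM in tg of that age, with 10.5 CPM or less at 6 months. Of 6 tested erythrocyte genes, 4 (66.7%, against 3.7% of all genes) had an unadjusted p under 0.05, all negative, and the list's sum ranged from 1.22 to 71.3 CPM in wt and 1.15 to 3.17 CPM in tg at 9 months. In its low globin level wt 9 months replicate 1 was like the tg libraries of its age and the wt libraries of 6 months. At 6 months the sum ranged from 1.74 to 7.22 CPM in wt and 2.62 to 23.6 CPM in tg. Summed neutrophil markers lay between 230.4 and 503 CPM in wt and 425 and 595 CPM in tg at 9 months, and between 183 and 368 CPM in all 6-month libraries. The 230.4 CPM was wt 9 months replicate 1, below all tg libraries of its age, where the other wt libraries had 503, 381 and 448 CPM. In these markers it was thus unlike the tg libraries of its age. The neutrophil collagenase gene Mmp8 was at 14.3, 30.4 and 31.1 CPM in tg at 9 months and 3.26 to 23.5 CPM in wt, and S100a8 at 63.9 to 110 CPM and 16.7 to 94.2 CPM. Choroid plexus markers summed to 4.02 CPM in wt 6 months replicate 3 and 7.38 CPM in wt 9 months replicate 5, against 207.8 to 3520.1 CPM in the other 13. Vascular markers summed to 895.7 to 1054 CPM in wt and 808 to 1066 CPM in tg at 9 months, with overlap, and 9 of 16 had a positive interaction, or 5 of 15 without wt 9 months replicate 1. Of the 16, 3 (18.8%, against 3.7% of all genes) had an unadjusted p under 0.05, 1 positive and 2 negative. The endothelial cadherin gene Cdh5 was low throughout, at 0 in tg at 9 months and at most 1.42 CPM elsewhere. Cd209a of border macrophages ranged from 0 to 29.6 CPM. The part of these cells in the interaction was not tested.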

How the data were processed

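The members and gene lists were chosen with earlier results of these data known, and the lists with their tests are descriptions. The submitters deposited raw counts per gene in 1 series table and 24 library files. Per the submitters' processing notes the build was GRCm39 and the tools were HTSeq 0.11.0, TopHat, cutadapt 2.10, FastQC 0.11.9, Picard 2.13.2 and SAMtools 1.10. For the annotation release and strand setting, the sources used here give nothing, so overlapping genes and near-identical copies cannot be told apart. All 36982 symbols of the series table equalled the library files summed by symbol, and 81 symbols stand for more than 1 gene ID.

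Counts were fitted in R 4.3.3 with edgeR 4.0.16: genes with at least 1 CPM in at least 3 of the 15 libraries, TMM factors, a robust quasi-likelihood fit of 4 group means, and Benjamini-Hochberg adjustment over all tested genes at 0.05. CPM in the text use the TMM factors. A floor of 3 counts equals 0.211 to 0.368 CPM, and fitted values of genes with a group near it are not given. The fit gives no SE, so each SE is the absolute log2 value divided by the square root of the F statistic. Limits are 95% intervals built from that SE, and both are approximate, least reliable for genes with zeros. The pipeline was tested on simulated data. DESeq2 1.42.0, limma 3.58.1 (voom with quality weights), RLE factors, library totals, other filters, the fit by gene ID, a replicate block, the 4-month libraries and each library left out were alternatives. Promoters come from RefSeq, where Cst7 and Mcm6 each matched 1 window.

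Named genes were those called in the interaction with a group mean of at least 1 CPM (up to 12 each way, up to 8 without wt 9 months replicate 1), filled to 8 each way by smallest p, up to 4 of smallest p per list, and 15 fixed genes of DAM, homeostatic and transgene interest. Same-numbered libraries of different groups did not deviate together (16 pairs, correlations −0.054 to 0.064), and no 2 libraries of a group agreed within counting noise.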

Additional observations from a re-analysis of the deposited data

Results flagged for a closer look

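In 188 pairs of a named gene and a group of 4 libraries, 22 held an outlying library. Its gap to its nearest neighbour relative to the group's range passed Dixon's 95% critical value. That value assumes normally distributed values, while some groups held zeros and the genes were chosen with these data known. The number of flags therefore cannot be set against a chance rate. The control wt 9 months replicate 1 gave 6 of the 22, always as the highest of its group. It had 295 CPM for Cst7 (11.7 to 30.3 in the other 3 libraries), 165 CPM for Clec7a (23.4 to 44.6), 64.8 CPM for Ccl4 (38.7 to 41.7) and 21.1 CPM for Igf1 (0 to 1.14). It also had 7.62 CPM for Baiap2l2 (0 to 0.0693) and 5.18 CPM for Aurkb, where the others were at 0.

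Of the other wt libraries of 9 months, replicate 2_4 was lowest for Capg (55.3 CPM) and highest for Mon2 (68.5 CPM) and Pfkfb3 (127 CPM), replicate 3 was highest for Gm38020 (2.49 CPM), and replicate 5 was highest for Mmp8 (23.5 CPM). In wt at 6 months, replicate 2 was highest for Hmgcs1 (49.9 CPM), replicate 3 for App (281 CPM) and replicate 4 for P2ry12 (19006 CPM). In tg at 6 months, replicate 1 was highest for Cdh5 (1.23 CPM) and Mmp8 (1.56 CPM), and replicate 2 was lowest for Hif1a (99.7 CPM) and Cd209a (8.93 CPM). There, replicate 3 was highest for Mertk (446 CPM) and Hbb-bs (10.5 CPM) and lowest for BC002059 (19.2 CPM), and replicate 4 was highest for S100a8 (57.9 CPM). No cause was tested.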

How the results depend on the processing

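The interaction called 0 genes in edgeR under each alternative run with it and in limma-voom, and 19 in DESeq2. At 6 months DESeq2 called 24 genes, at 9 months 18, and limma-voom called 2 at 9 months. With each library left out in turn, calls ranged from 0 to 1 at 6 months and from 0 to 2 at 9 months, the higher values being without wt 9 months replicate 1. Without that library and wt 6 months replicate 3 they were 1 and 5 (Cst7, Clec7a, Lpl, Baiap2l2 and Apoe). With a replicate block edgeR called 0 genes in each of the 3 comparisons (572, 588 and 562 at an unadjusted p under 0.05). Only 4 of 15 libraries correlated best with a library of their own number.

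Of 1377 interaction values of single genes under the alternatives, 1329 kept their direction and their side of the threshold and 44 turned direction. The remaining 4 passed the threshold in DESeq2: Mcm6 (1.80), Zfp141 (3.00), Cd300a (−0.75) and Jag2 (−5.73). Without both doubted controls Cst7 was at 0.80, Clec7a at 1.04, Tyrobp at −0.075, Cx3cr1 at 0.039 and App at −0.51. In limma-voom Clec7a was at 0.40, Tyrobp at −0.045, Cx3cr1 at 0.034 and App at −0.15. With the replicate block Spp1 was at −0.16, Tyrobp at −0.026, P2ry12 at 0.0099 and Cx3cr1 at 0.039. With the low-count tg library Ctsb was at −0.081 and Tyrobp at −0.24. With 1 library left out, values ranged from −1.73 to 0.81 for Cst7, −0.40 to 0.85 for Clec7a, −0.29 to 1.72 for Itgax, −0.14 to 0.047 for Trem2 and −0.11 to 0.65 for Spp1. They ranged from −0.14 to 0.11 for Tyrobp, −0.27 to 0.089 for P2ry12, −0.10 to 0.084 for Cx3cr1 and −0.43 to 0.32 for App. Apart from the libraries named, the cause was not tested. With 3 or 4 libraries a group, the median SE of the DAM genes' interaction was 0.34.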
